A study of Homo sapiens with 12 samples.

Results

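The 30 genes described here encode subunits of the nuclear RNA polymerases I, II and III, and were found by gene symbol among 57755 gene identifiers in the deposited tables. By enzyme, 7 belong to polymerase II alone, 5 to all 3 enzymes, 2 to polymerases I and III, 6 to polymerase I alone and 10 to polymerase III alone. They were measured by RNA-seq in 12 libraries of KYSE510 and TE7, human cell lines from esophageal squamous cell carcinoma. Each line gave 1 library with THZ1 at 50 nM for 2, 4, 6 and 12 h, 1 with THZ1 at 200 nM for 6 h, and 1 with DMSO, the solvent control. THZ1 is a covalent inhibitor of CDK7 that also acts on CDK12 and CDK13 at higher doses. The DMSO libraries are titled 0 h while their time label reads 12 h, and no DMSO library is labelled 2, 4 or 6 h, so hours of THZ1 cannot be told apart from hours in culture. No label names separate cultures, and the lines serve as the 2 replicates of each condition, so the p-values reflect how these libraries and lines vary, which may be technical. KYSE510 was grown in RPMI-1640 and TE7 in DMEM, so line and medium cannot be told apart.

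Polymerase I transcribes the large ribosomal RNA precursor, polymerase II transcribes messenger RNA, and polymerase III transcribes transfer RNA, 5S ribosomal RNA and other short RNAs. Each enzyme is built on its own pair of large catalytic subunits, and a set of small subunits is shared among all of them. The largest polymerase II subunit, made by POLR2A, carries the C-terminal repeat domain that CDK7 and other transcriptional kinases phosphorylate. All of these subunit mRNAs are themselves polymerase II transcripts.

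FPKM, fragments scaled to transcript length and to all mapped fragments, is a level per transcript length and is relative to the rest of the library. A lower FPKM therefore does not tell a loss of RNA per cell from a lower share of an RNA pool of another size, and in bulk RNA fewer cells of a kind and less RNA per cell cannot be told apart. FPKM summed to 383975 to 729515 per library, and all 30 genes passed the filter of at least 1 FPKM in at least 2 libraries. The library labelled KYSE510 DMSO stood apart: across genes it correlated with the KYSE510 library of 2 h at r = 0.879, against 0.976 in TE7. Its keratin gene KRT6A stood at 14.4 FPKM, against at least 190.3 FPKM in the other 11 libraries. Of the other squamous markers, KRT14, DSG3 and SOX2 lay below the 50 nM range of KYSE510 in that DMSO library. KRT5 and TP63 lay within that range, and KRT17, at 719 FPKM, above it. The 7 squamous markers summed to 2110 and 2222 FPKM in KYSE510 and TE7 at 200 nM, to 2644 to 4903 FPKM over the 8 libraries of 50 nM, and to 2345 and 2860 FPKM with DMSO. The KYSE510 library of 200 nM also stood apart, with KRT14 at 2.62 FPKM against 449 to 564 FPKM at 50 nM in that line, and KRT17 at 47.7 FPKM against 431 to 554 FPKM. KRT5, KRT6A, DSG3 and TP63 were below their 50 nM range there too, and SOX2, at 84.9 FPKM, was within it. The simple epithelium marker KRT19 stood at 11.0 FPKM with DMSO and 0.852 FPKM at 200 nM in KYSE510, against 540 to 692 FPKM at 50 nM. In these libraries KRT8 was above its 50 nM range, EPCAM within and above it, and KRT18 above and below it. The 3 mesenchyme markers summed to 22.7 FPKM in that 200 nM library, led by CDH2, and to 17.1 FPKM in the library labelled KYSE510 DMSO, led by FN1, against 0.644 to 2.36 FPKM in the other 10. The 2 leukocyte markers summed to 1.93 to 14.7 FPKM, nearly all of it CD68, while the defining gene PTPRC was at or below 0.117 FPKM, and CDH5 of endothelium at or below 0.58 FPKM. The part of these markers in the results was not tested. Libraries of 200 nM and 50 nM at 6 h correlated at r = 0.855 in KYSE510 and 0.865 in TE7. Results against DMSO are therefore also given without the library labelled KYSE510 DMSO and both 200 nM libraries, and the slope over hours uses neither kind. That fit keeps the TE7 DMSO library as its only control and fits it exactly, so its spread holds no variation of DMSO. Changes against DMSO from it are therefore given without p-values.

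At 50 nM the level of POLR2A mRNA climbed with time in both lines while most subunits particular to polymerases I and III declined. After 12 h, POLR2A was 2.84-fold its DMSO level in KYSE510 and 3.48-fold in TE7. The polymerase I stalk subunit gene TWISTNB was the other member that rose against DMSO, and 9 members fell, beside 3.27% of all genes called higher and 25.2% lower. The members that fell were POLR2D of polymerase II, POLR1A, POLR1E and ZNRD1 of polymerase I, and POLR3A, POLR3B, POLR3C, POLR3D and POLR3E of polymerase III. At 200 nM for 6 h, 13 members fell against DMSO, TWISTNB among them, and 0 rose, beside 35.3% and 3.22% of all genes called lower and higher. Against 50 nM at the same 6 h, 14 members were lower at 200 nM and 0 higher, beside 21.9% and 2.94%, and these included both POLR2A and TWISTNB. All comparisons with DMSO share the 2 DMSO libraries.

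POLR2A (chr17:7387685-7417933 on hg19, ENSG00000181222, with no overlapping gene listed at 1 FPKM or above) makes the catalytic subunit RPB1. In KYSE510 its level was 47.2 FPKM in DMSO, 60.1, 77.9, 109 and 134 FPKM after 2, 4, 6 and 12 h at 50 nM, and 33.6 FPKM at 200 nM. In TE7 it was 39.9 FPKM in DMSO, 59.8, 98.4, 123 and 139 FPKM at 50 nM, and 26.7 FPKM at 200 nM. Each later 50 nM library stood above the one before it in its line, all 8 stood above both DMSO libraries, and both 200 nM libraries lay below both DMSO libraries. The change in log2(FPKM + 1) against DMSO, as the mean over both lines with its standard error, was 0.46 ± 0.20 at 2 h, 0.996 ± 0.20 at 4 h, 1.40 ± 0.20 at 6 h and 1.63 ± 0.20 at 12 h (limma, adjusted p = 0.467, 0.0944, 0.0184 and 0.0019). POLR2A was thus called at 6 and 12 h. Its slope over 2 to 12 h at 50 nM, which uses no DMSO library, was 0.106 ± 0.0205 log2 units per hour (limma, adjusted p = 0.00247), and the slopes in KYSE510 and TE7 differed by 0.00656 ± 0.0435 (adjusted p = 0.939).

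Without the library labelled KYSE510 DMSO and both 200 nM libraries, which leaves 1 DMSO library, the POLR2A change was 1.18 at 4 h, 1.59 at 6 h and 1.82 at 12 h. The 6 h call of POLR2A was lost when any 1 of the 6 libraries of 2, 4 or 6 h at 50 nM was left out. It was also lost without the cell-line block. In each of these fits the 6 h calls of all other genes were lost too. The 6 h change of POLR2A was 1.26 to 1.60 over all alternatives. The calls of POLR2A at 12 h and for the slope held in every alternative that was run. At 200 nM the POLR2A change against DMSO was -0.52 ± 0.20 (limma, adjusted p = 0.076), which did not pass, passed without the KYSE510 library of 200 nM (-0.71, adjusted p = 0.0332) and turned to 0.34 under median-of-ratios scaling. Against 50 nM at 6 h it was -1.92 ± 0.20 (limma, adjusted p = 0.00102).

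**Figure D1:**
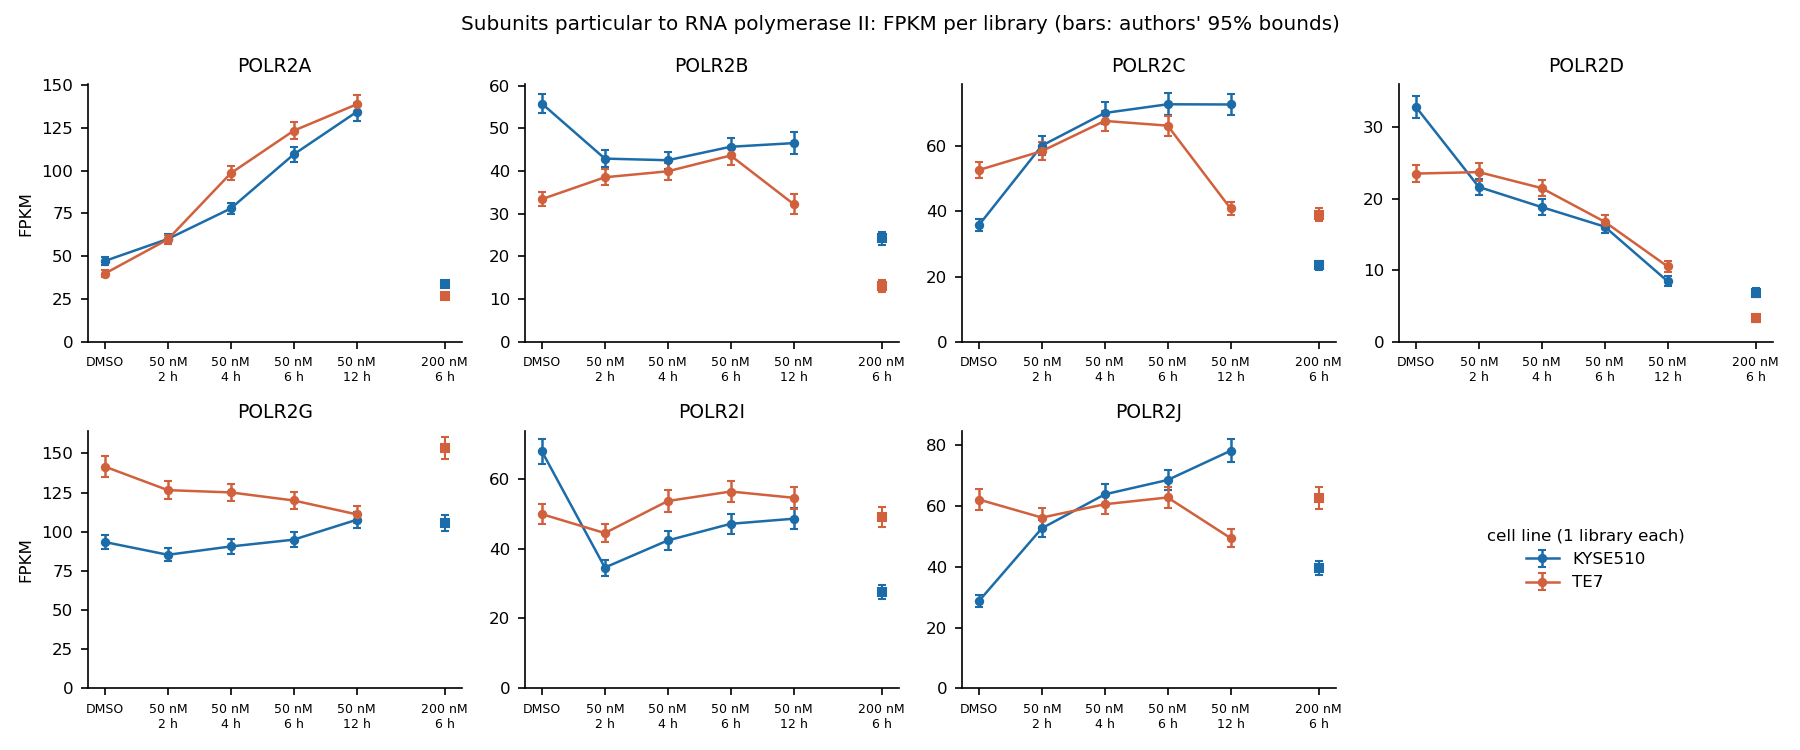
FPKM of the 7 subunits particular to polymerase II in each library, with KYSE510 in blue and TE7 in orange; circles show DMSO and the hours at 50 nM, squares show 200 nM at 6 h, and bars are the authors' 95% bounds. POLR2A climbs to 134 and 139 FPKM in KYSE510 and TE7 at 12 h while POLR2D declines to 8.49 and 10.6 FPKM.

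The second-largest subunit gene POLR2B, which completes the catalytic centre, stood in KYSE510 at 55.8 FPKM in DMSO, 42.9, 42.5, 45.7 and 46.5 FPKM after 2, 4, 6 and 12 h at 50 nM, and 24.3 FPKM at 200 nM. In TE7 it stood at 33.4 FPKM in DMSO, 38.5, 39.9, 43.6 and 32.3 FPKM at 50 nM, and 13.05 FPKM at 200 nM. Its 50 nM libraries overlapped the DMSO libraries, and the change at 12 h was -0.15 ± 0.25 (limma, adjusted p = 0.679). At 200 nM both lines lay below all other libraries of POLR2B, with a change of -1.23 ± 0.25 against DMSO (adjusted p = 0.00664) and -1.28 ± 0.25 against 50 nM at 6 h (adjusted p = 0.009). The call against 50 nM was lost without the TE7 library of 50 nM at 6 h (-1.08). It was also lost when FPKM was rescaled to equal sums, under median-of-ratios scaling and without the cell-line block.

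POLR2D makes RPB4, which forms the stalk of polymerase II together with RPB7, the product of POLR2G. POLR2D stood in KYSE510 at 32.9 FPKM in DMSO, 21.7, 18.9, 16.1 and 8.49 FPKM after 2, 4, 6 and 12 h at 50 nM, and 6.87 FPKM at 200 nM. In TE7 the level was 23.5 FPKM in DMSO, 23.7, 21.5, 16.8 and 10.6 FPKM at 50 nM, and 3.28 FPKM at 200 nM. Both 12 h libraries and both 200 nM libraries lay below both DMSO libraries. POLR2D fell at 12 h, with a log2 change of -1.46, and at 200 nM, with one of -2.31 (SE 0.31; limma, adjusted p = 0.011 and 0.00132), and its slope over hours was -0.120 ± 0.00949 (adjusted p = 3.62e-05). The 12 h call of POLR2D was lost without the library labelled KYSE510 DMSO (-1.25) or without the KYSE510 library of 12 h (-1.22). Without that DMSO library and both 200 nM libraries the change was -1.15.

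Its stalk partner POLR2G stood in KYSE510 at 93.4 FPKM in DMSO, 85.2, 90.6, 94.9 and 108 FPKM after 2, 4, 6 and 12 h at 50 nM, and 106 FPKM at 200 nM. TE7 libraries held 142 FPKM in DMSO, 127, 125, 119.9 and 111 FPKM at 50 nM, and 153 FPKM at 200 nM. TE7 was above KYSE510 in every condition, and no comparison with DMSO passed: the changes were -0.07 at 12 h and 0.15 at 200 nM (SE 0.18, adjusted p = 0.802 and 0.556). Of the stalk pair, POLR2D thus passed against DMSO and POLR2G did not, and the difference between them was not tested.

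POLR2C and POLR2J make RPB3 and RPB11, the pair on which polymerase II assembly starts. POLR2C stood in KYSE510 at 35.8 FPKM in DMSO, 60.2, 70.2, 72.8 and 72.8 FPKM after 2, 4, 6 and 12 h at 50 nM, and 23.4 FPKM at 200 nM. The TE7 values were 52.7 FPKM in DMSO, 58.5, 67.7, 66.3 and 40.9 FPKM at 50 nM, and 38.98 FPKM at 200 nM. POLR2C was lower at 200 nM than at 50 nM at 6 h (-1.17 ± 0.34; limma, adjusted p = 0.0403), a call that was lost without any 1 of 7 libraries, the highest adjusted p being 0.22 without the KYSE510 library of 50 nM at 6 h, and POLR2C was not called against DMSO. POLR2J stood in KYSE510 at 28.7 FPKM in DMSO, 52.6, 63.8, 68.5 and 78.1 FPKM after 2, 4, 6 and 12 h at 50 nM, and 39.7 FPKM at 200 nM. TE7 showed 62.1 FPKM in DMSO, 56.2, 60.6, 62.8 and 49.4 FPKM at 50 nM, and 62.6 FPKM at 200 nM. All 4 KYSE510 libraries of 50 nM were above KYSE510 DMSO while those of TE7 lay on both sides of TE7 DMSO, and POLR2J was called in no comparison. Its near-copies POLR2J2, POLR2J3 and POLR2J4 may share its fragments.

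POLR2I, which makes the fidelity subunit RPB9, stood in KYSE510 at 67.8 FPKM in DMSO, 34.6, 42.3, 47.1 and 48.5 FPKM after 2, 4, 6 and 12 h at 50 nM, and 27.6 FPKM at 200 nM. For TE7 the values were 49.8 FPKM in DMSO, 44.4, 53.6, 56.3 and 54.5 FPKM at 50 nM, and 49.03 FPKM at 200 nM. The library labelled KYSE510 DMSO was the highest of the 12, the groups overlapped in TE7, and POLR2I was called in no comparison. POLR2I shares its locus with TBCB, at a mean of 61.5 FPKM, and the strand setting of the counting is not given in the sources used here.

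Among the 7 subunits particular to polymerase II, POLR2A was the 1 called higher at 12 h and POLR2D the 1 called lower, and the median change of the 7 was -0.07. Over all 15610 genes tested at 12 h, 3.27% were called higher and 25.2% lower, and the median change was -0.42. The ratio of POLR2A to the median of the other 6 was, in KYSE510, 1.03 in DMSO, 1.26, 1.46, 1.89 and 2.21 after 2, 4, 6 and 12 h at 50 nM. In TE7 it was 0.778 in DMSO, 1.19, 1.72, 2.07 and 3.07 after 2, 4, 6 and 12 h at 50 nM. At 200 nM the ratio was 1.30 in KYSE510 and 0.607 in TE7. The ratio climbed at each step of the 50 nM course in both lines and does not depend on library scaling. At 200 nM it was above the DMSO ratio in KYSE510 and below it in TE7. With the mean of log2 values of the other 6 in place of their median, it was above DMSO in both lines. That ratio was 1.21 and 0.880 at 200 nM in KYSE510 and TE7, against 0.989 and 0.778 with DMSO. The direction in TE7 thus depends on the divisor. POLR2A held 11.8% and 11.4% of the summed FPKM of the 30 genes at 12 h in KYSE510 and TE7, against 4.70% and 3.26% with DMSO. By level it ranked 1 and 3 among the 30 at 12 h in KYSE510 and TE7, against 9 and 12 with DMSO.

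The largest subunits of the 3 enzymes moved apart. POLR2A over POLR1A, the catalytic subunit gene of polymerase I, was, in KYSE510, 3.33 in DMSO, 10.03, 17.4, 20.6 and 39.7 after 2, 4, 6 and 12 h at 50 nM. In TE7 this ratio was 4.75 in DMSO, 7.73, 12.9, 21.4 and 34.8 after 2, 4, 6 and 12 h at 50 nM. POLR2A over POLR3A, its counterpart in polymerase III, was 88.1 and 78.05 at 12 h in KYSE510 and TE7, against 11.01 and 6.31 with DMSO. Both ratios rose with each later library of 50 nM. At 200 nM POLR2A over POLR1A was 11.6 and 5.09 in KYSE510 and TE7, and POLR2A over POLR3A 14.2 and 17.5. POLR2A over POLR2B was 1.39 and 2.05 at 200 nM in KYSE510 and TE7, against 0.847 and 1.19 with DMSO. All of these ratios at 200 nM lay above the DMSO ratio of their line. Over the 8 libraries of 50 nM, log2 of POLR2A over POLR2B, POLR1A and POLR3A increased by 0.116, 0.195 and 0.258 per hour. In a two-sided exact permutation test that reordered the hours within each line (576 arrangements, smallest possible p = 0.00174), p was 0.00347, 0.00174 and 0.00174, and 0.00347, 0.0026 and 0.0026 after Benjamini-Hochberg adjustment over these 3 ratios. These 3 ratios were chosen after the levels had been seen.

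**Figure D2:**
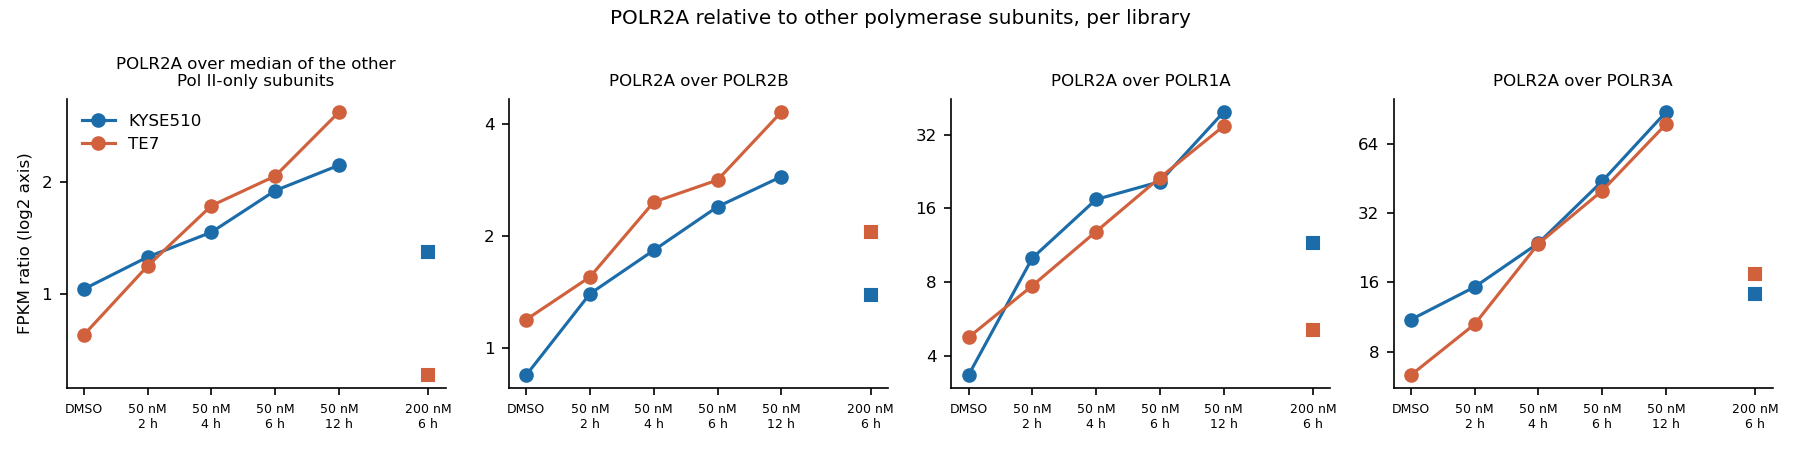
FPKM of POLR2A divided by the median of the other 6 polymerase II subunits, by POLR2B, by POLR1A and by POLR3A, 1 point per library on log2 axes, with KYSE510 in blue and TE7 in orange; squares are 200 nM at 6 h. All 4 ratios climb along the 50 nM course in both lines, POLR2A over POLR3A to 88.1 in KYSE510 and 78.0 in TE7.

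The promoters of the 2 members called higher at 12 h and of 2 members called lower both at 12 h and at 200 nM are printed to show the starts of genes that moved in opposite ways. Each is the RefSeq stretch of 250 bases before to 50 after the gene start on GRCh38.p14, 5′ to 3′. Capitals mark the GC box GGGCGG on either strand, and the other motifs searched on both strands were the TATA box TATAAA and the CCAAT box CCAAT, none of which overlap in the 4 stretches.
POLR2A (chr17:7484116-7484415, plus strand): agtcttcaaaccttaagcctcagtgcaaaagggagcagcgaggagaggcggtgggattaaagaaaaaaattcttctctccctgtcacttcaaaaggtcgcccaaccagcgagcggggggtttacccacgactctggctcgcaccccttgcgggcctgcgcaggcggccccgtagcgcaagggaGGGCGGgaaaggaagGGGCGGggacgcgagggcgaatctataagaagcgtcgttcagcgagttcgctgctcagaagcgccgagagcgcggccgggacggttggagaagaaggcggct
TWISTNB, RefSeq symbol POLR1F (chr7:19708988-19709287, minus strand): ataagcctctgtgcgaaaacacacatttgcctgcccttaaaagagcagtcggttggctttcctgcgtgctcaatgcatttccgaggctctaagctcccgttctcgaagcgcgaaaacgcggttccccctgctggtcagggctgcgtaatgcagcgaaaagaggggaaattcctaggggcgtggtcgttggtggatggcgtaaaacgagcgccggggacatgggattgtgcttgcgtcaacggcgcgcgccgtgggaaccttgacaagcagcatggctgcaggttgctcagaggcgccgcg
POLR2D (chr2:127858106-127858405, minus strand): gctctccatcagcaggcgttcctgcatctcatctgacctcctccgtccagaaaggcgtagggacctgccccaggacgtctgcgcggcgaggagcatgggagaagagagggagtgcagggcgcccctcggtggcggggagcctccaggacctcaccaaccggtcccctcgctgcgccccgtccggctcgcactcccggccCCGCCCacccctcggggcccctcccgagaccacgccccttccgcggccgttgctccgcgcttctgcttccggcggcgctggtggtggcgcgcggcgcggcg
POLR3E (chr16:22297159-22297458, plus strand): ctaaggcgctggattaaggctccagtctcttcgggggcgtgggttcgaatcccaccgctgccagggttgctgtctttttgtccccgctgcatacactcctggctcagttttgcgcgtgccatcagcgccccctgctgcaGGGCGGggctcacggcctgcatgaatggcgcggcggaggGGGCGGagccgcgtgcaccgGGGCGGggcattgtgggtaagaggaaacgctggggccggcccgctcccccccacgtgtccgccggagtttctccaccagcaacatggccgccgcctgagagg
The POLR2A stretch held 2 GC boxes and the TWISTNB stretch 0, against 1 in POLR2D and 3 in POLR3E, and neither of the other motifs was in any of the 4. Of the 30 members, 22 had an entry, 3 of them under a newer symbol. A GC box was in 14 of the 22, against 45.0% of 35116 RefSeq promoters of the same length, a CCAAT box in 5 of 22 against 34.6%, and a TATA box in 0 of 22 against 11.5%. GC content was 61.3% in POLR2A, 58.7% in TWISTNB, 73.7% in POLR2D and 68.0% in POLR3E, beside a median of 58.7% over all promoters.

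The 5 small subunits found in all 3 enzymes were called in no comparison with DMSO. POLR2E (RPB5) stood between 74.1 and 110.2 FPKM over the 12 libraries and changed by 0.17 at 12 h and 0.35 at 200 nM (SE 0.18, adjusted p = 0.511 and 0.158). POLR2F (RPB6) stood in KYSE510 at 47.3 FPKM in DMSO, 38.5, 47.1, 48.1 and 60.3 FPKM after 2, 4, 6 and 12 h at 50 nM, and 75.6 FPKM at 200 nM. In TE7 it stood at 70.6 FPKM in DMSO, 63.9, 70.9, 72.5 and 92.3 FPKM at 50 nM, and 68.7 FPKM at 200 nM. The 12 h library was the highest of the 50 nM course in each line, and the slope over hours was 0.0543 ± 0.00815 (limma, adjusted p = 0.000684).

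POLR2K (RPB12) stood in KYSE510 at 28.99 FPKM in DMSO, 41.5, 44.1, 43.7 and 50.5 FPKM after 2, 4, 6 and 12 h at 50 nM, and 43.8 FPKM at 200 nM. In TE7 the level was 75.9 FPKM in DMSO, 89.8, 98.7, 105 and 114 FPKM at 50 nM, and 58.3 FPKM at 200 nM. Every TE7 library was above its KYSE510 counterpart, and the slope of POLR2K over hours was 0.0290 ± 0.00740 (limma, adjusted p = 0.00967). POLR2L (RPB10) stood in KYSE510 at 105 FPKM in DMSO, 40.1, 40.7, 46.9 and 58.03 FPKM after 2, 4, 6 and 12 h at 50 nM, and 54.8 FPKM at 200 nM. TE7 libraries held 123 FPKM in DMSO, 89.1, 95.1, 106 and 140.2 FPKM at 50 nM, and 114 FPKM at 200 nM. POLR2L was lowest at 2 h in each line, below DMSO, and then increased at 0.0606 ± 0.00736 per hour (adjusted p = 0.00023). POLR2L overlaps CD151, at a mean of 95.9 FPKM.

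POLR2H (RPB8) stood in KYSE510 at 56.4 FPKM in DMSO, 177, 172, 158 and 120.0 FPKM after 2, 4, 6 and 12 h at 50 nM, and 71.6 FPKM at 200 nM. The TE7 values were 55.7 FPKM in DMSO, 68.1, 51.8, 40.9 and 23.4 FPKM at 50 nM, and 28.1 FPKM at 200 nM. The DMSO levels of the lines were alike, and all 4 KYSE510 libraries of 50 nM lay above all 6 TE7 libraries. These 4 also lay above the library labelled KYSE510 DMSO, which stood apart from the other KYSE510 libraries. Of 15 other genes within 500000 bases, at a mean of at least 5 FPKM, 12 did the same, against 8.58% of all genes at that mean. This window was chosen after the values were seen, and the order is not particular to POLR2H. Within the 50 nM course both lines declined, at -0.103 ± 0.0171 per hour (limma, adjusted p = 0.00119). POLR2H overlaps EIF2B5, at a mean of 49.4 FPKM. Of the 5 shared genes, 3 were called with a positive slope and 1 with a negative slope, while over all genes tested 10.6% had a positive slope and 49.3% a negative one.

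POLR1C and POLR1D make the assembly pair shared by polymerases I and III, the counterparts of RPB3 and RPB11. POLR1C stood in KYSE510 at 30.1 FPKM in DMSO, 50.2, 55.9, 47.3 and 40.02 FPKM after 2, 4, 6 and 12 h at 50 nM, and 5.66 FPKM at 200 nM. TE7 showed 15.6 FPKM in DMSO, 28.99, 28.9, 22.4 and 15.5 FPKM at 50 nM, and 6.90 FPKM at 200 nM. The 200 nM libraries of POLR1C were the lowest of their line, while its 50 nM and DMSO libraries overlapped. POLR1D stood in KYSE510 at 95.2 FPKM in DMSO, 74.2, 82.4, 71.3 and 59.4 FPKM after 2, 4, 6 and 12 h at 50 nM, and 23.3 FPKM at 200 nM. For TE7 the values were 121 FPKM in DMSO, 161, 167, 149 and 164 FPKM at 50 nM, and 31.4 FPKM at 200 nM. POLR1D likewise was lowest at 200 nM in each line. The change at 200 nM against DMSO was -1.64 ± 0.34 for POLR1C and -1.95 ± 0.28 for POLR1D (limma, adjusted p = 0.00776 and 0.00181), and against 50 nM at 6 h it was -2.21 ± 0.34 and -1.89 ± 0.28 (adjusted p = 0.0039 and 0.00338). At 12 h of 50 nM the changes were 0.20 and -0.12, neither of which passed. POLR1C overlaps YIPF3 and XPO5, at means of 33.7 and 23.1 FPKM, and without the KYSE510 library of 50 nM at 6 h its call against 50 nM just missed (-2.06, adjusted p = 0.052).

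TWISTNB (chr7:19735085-19748710 on hg19), the stalk subunit gene of polymerase I, stood in KYSE510 at 11.9 FPKM in DMSO, 23.2, 24.7, 29.3 and 42.04 FPKM after 2, 4, 6 and 12 h at 50 nM, and 6.18 FPKM at 200 nM. In TE7 it stood at 18.05 FPKM in DMSO, 25.96, 29.3, 29.8 and 45.6 FPKM at 50 nM, and 4.97 FPKM at 200 nM. Like POLR2A it was higher in each later 50 nM library, with all 8 above both DMSO libraries and both 200 nM libraries below them. TWISTNB rose by 1.52 ± 0.22 at 12 h (limma, adjusted p = 0.00306), with a slope of 0.0820 ± 0.00873 per hour (adjusted p = 0.000121). At 200 nM it changed by -1.26 ± 0.22 against DMSO (adjusted p = 0.00402; -0.47 and 0.138 under median-of-ratios scaling) and by -2.22 ± 0.22 against 50 nM at 6 h (adjusted p = 0.000913). Without the library labelled KYSE510 DMSO and both 200 nM libraries, the 12 h change of TWISTNB was 1.30.

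POLR1A, the largest polymerase I subunit gene, stood in KYSE510 at 14.2 FPKM in DMSO, 5.99, 4.47, 5.31 and 3.38 FPKM after 2, 4, 6 and 12 h at 50 nM, and 2.91 FPKM at 200 nM. In TE7 the level was 8.40 FPKM in DMSO, 7.75, 7.65, 5.77 and 3.99 FPKM at 50 nM, and 5.25 FPKM at 200 nM. The library labelled KYSE510 DMSO was the highest, and in TE7 the level declined through 12 h. The change was -1.35 ± 0.34 at 12 h and -1.27 ± 0.34 at 200 nM (limma, adjusted p = 0.0212 and 0.0204). Without that DMSO library alone the calls were lost, at -0.81 and -0.73, and without it and both 200 nM libraries the 12 h change was -0.85. The 12 h call of POLR1A was also lost without either 12 h library (adjusted p = 0.09 and 0.108), and the 200 nM call without the KYSE510 library of 200 nM (-0.99, adjusted p = 0.086). Its slope over hours was -0.0729 ± 0.0140 (adjusted p = 0.00246), and it no longer passed under median-of-ratios scaling (-0.0205, adjusted p = 0.208) or without the cell-line block (adjusted p = 0.064).

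POLR1B, the second-largest subunit gene, stood in KYSE510 at 16.4 FPKM in DMSO, 15.5, 13.3, 14.1 and 10.6 FPKM after 2, 4, 6 and 12 h at 50 nM, and 4.48 FPKM at 200 nM. TE7 libraries held 16.3 FPKM in DMSO, 18.5, 18.1, 16.7 and 11.5 FPKM at 50 nM, and 5.02 FPKM at 200 nM. The 200 nM libraries were the lowest in each line, with a change of -1.59 ± 0.19 against DMSO and -1.51 ± 0.19 against 50 nM at 6 h (limma, adjusted p = 0.000904 and 0.00184). POLR1E, which makes PAF53, stood in KYSE510 at 12.6 FPKM in DMSO, 14.9, 15.1, 14.8 and 6.15 FPKM after 2, 4, 6 and 12 h at 50 nM, and 5.11 FPKM at 200 nM. The TE7 values were 19.8 FPKM in DMSO, 20.7, 17.9, 13.4 and 3.85 FPKM at 50 nM, and 3.59 FPKM at 200 nM. Levels of POLR1E were close to DMSO through 4 h and lowest at 12 h and at 200 nM, where the changes were -1.51 ± 0.32 and -1.67 ± 0.32 (adjusted p = 0.0112 and 0.00553). The 12 h call of POLR1E was lost without the TE7 library of 12 h (-1.16, adjusted p = 0.087).

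ZNRD1, the gene of the small subunit that takes part in RNA cleavage, stood in KYSE510 at 27.8 FPKM in DMSO, 24.6, 23.6, 18.2 and 12.7 FPKM after 2, 4, 6 and 12 h at 50 nM, and 10.7 FPKM at 200 nM. TE7 showed 30.3 FPKM in DMSO, 22.6, 19.6, 16.1 and 8.49 FPKM at 50 nM, and 8.91 FPKM at 200 nM. It declined at each step in both lines and was called at 12 h (-1.40 ± 0.20), at 200 nM (-1.48 ± 0.20) and over hours (-0.114 ± 0.0116), with limma adjusted p of 0.00302, 0.00149 and 0.000103. CD3EAP, which makes PAF49, stood in KYSE510 at 9.44 FPKM in DMSO, 8.80, 8.35, 7.38 and 4.05 FPKM after 2, 4, 6 and 12 h at 50 nM, and 1.76 FPKM at 200 nM. For TE7 the values were 3.62 FPKM in DMSO, 6.86, 5.78, 4.27 and 1.49 FPKM at 50 nM, and 7.36 FPKM at 200 nM. At 200 nM the lines went opposite ways, and CD3EAP was called only over hours (-0.135 ± 0.0165, adjusted p = 0.000237). CD3EAP overlaps ERCC1 and PPP1R13L, at means of 43.5 and 29.8 FPKM. Over hours at 50 nM, 5 of the 6 polymerase I genes had a negative slope that passed and TWISTNB a positive one, beside 49.3% and 10.6% of all genes. Under median-of-ratios scaling POLR1E, ZNRD1 and CD3EAP kept a negative call and POLR1A and POLR1B did not.

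All 10 genes particular to polymerase III had changes below zero at 12 h, with a median of -1.02 beside -0.42 over all genes tested, and 5 of them passed. Over all 15610 genes, 10806 had changes below zero at 12 h and 25.2% were called lower. POLR3A (chr10:79734907-79789303 on hg19), the catalytic subunit gene, stood in KYSE510 at 4.29 FPKM in DMSO, 3.93, 3.28, 2.48 and 1.52 FPKM after 2, 4, 6 and 12 h at 50 nM, and 2.36 FPKM at 200 nM. In TE7 it stood at 6.32 FPKM in DMSO, 5.69, 4.18, 3.08 and 1.78 FPKM at 50 nM, and 1.53 FPKM at 200 nM. It declined at each step of the 50 nM course in both lines, and both 12 h libraries lay below both DMSO libraries. The change was -1.23 ± 0.26 at 12 h (limma, adjusted p = 0.0119) and the slope -0.110 ± 0.0128 per hour (adjusted p = 0.000193). Without the library labelled KYSE510 DMSO and both 200 nM libraries the 12 h change was -1.33. The 12 h call of POLR3A was lost without either 12 h library. At 200 nM the change was -1.09 ± 0.26 (adjusted p = 0.014, and 0.052 without the TE7 DMSO library).

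POLR3B, the second-largest subunit gene, stood in KYSE510 at 5.89 FPKM in DMSO, 4.50, 3.58, 3.20 and 1.57 FPKM after 2, 4, 6 and 12 h at 50 nM, and 0.813 FPKM at 200 nM. In TE7 the level was 4.11 FPKM in DMSO, 3.87, 3.58, 2.75 and 1.42 FPKM at 50 nM, and 0.618 FPKM at 200 nM. The 2 libraries of 200 nM were under 1 FPKM and the lowest. POLR3B changed by -1.25 ± 0.21 at 12 h and -1.79 ± 0.21 at 200 nM (limma, adjusted p = 0.005 and 0.000864), and at these low levels the added 1 FPKM shortens the change.

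POLR3D and POLR3E make the pair RPC4 and RPC5, a counterpart of the initiation factor TFIIF. POLR3D stood in KYSE510 at 7.11 FPKM in DMSO, 9.30, 5.62, 4.12 and 1.24 FPKM after 2, 4, 6 and 12 h at 50 nM, and 5.62 FPKM at 200 nM. TE7 libraries held 10.7 FPKM in DMSO, 12.9, 6.85, 3.63 and 1.65 FPKM at 50 nM, and 1.87 FPKM at 200 nM. It was above DMSO at 2 h in both lines and then declined, to 7.52-fold below the 2 h level at 12 h in KYSE510 and 7.84-fold below it in TE7. Its slope of -0.220 ± 0.0205 per hour (limma, adjusted p = 6.93e-05) was the steepest of the 30. POLR3D changed by -1.999 ± 0.41 at 12 h (adjusted p = 0.0098), a call lost without either 12 h library (adjusted p = 0.065 and 0.052). At 200 nM it stood far lower in TE7 than in KYSE510 relative to DMSO, and the change of -1.16 ± 0.41 did not pass (adjusted p = 0.0553).

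POLR3E (chr16:22308730-22346424 on hg19) stood in KYSE510 at 19.6 FPKM in DMSO, 23.3, 18.99, 17.2 and 7.25 FPKM after 2, 4, 6 and 12 h at 50 nM, and 4.08 FPKM at 200 nM. The TE7 values were 47.3 FPKM in DMSO, 44.8, 40.2, 29.2 and 9.03 FPKM at 50 nM, and 15.5 FPKM at 200 nM. The 12 h and 200 nM libraries were the lowest in each line. POLR3E changed by -1.79 ± 0.31 at 12 h and by -1.79 ± 0.31 at 200 nM (limma, adjusted p = 0.00573 and 0.00392), with a slope of -0.193 ± 0.0183 per hour (adjusted p = 7.38e-05). Without the library labelled KYSE510 DMSO and both 200 nM libraries the 12 h change of POLR3E was -2.04.

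POLR3C and POLR3F make RPC3 and RPC6, which form a subcomplex for initiation with the product of POLR3G or of its paralog POLR3GL. POLR3C stood in KYSE510 at 12.1 FPKM in DMSO, 17.8, 17.5, 14.9 and 5.91 FPKM after 2, 4, 6 and 12 h at 50 nM, and 5.35 FPKM at 200 nM. TE7 showed 12.3 FPKM in DMSO, 16.4, 13.6, 9.95 and 3.70 FPKM at 50 nM, and 4.12 FPKM at 200 nM. Both lines were above DMSO at 2 h and below it at 12 h and 200 nM, with changes of -1.21 ± 0.22 and -1.21 ± 0.22 (limma, adjusted p = 0.0063 and 0.00432). POLR3F stood in KYSE510 at 4.61 FPKM in DMSO, 5.91, 5.05, 3.56 and 2.69 FPKM after 2, 4, 6 and 12 h at 50 nM, and 3.17 FPKM at 200 nM. For TE7 the values were 6.57 FPKM in DMSO, 8.53, 6.61, 5.52 and 5.20 FPKM at 50 nM, and 2.93 FPKM at 200 nM. POLR3F had the same early peak at 2 h, was not called against DMSO, and had a slope of -0.0724 ± 0.0157 per hour (adjusted p = 0.00434).

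The paralogs POLR3G, associated with stem and tumour cells, and POLR3GL, expressed widely, stood on opposite sides of DMSO in the 2 lines, a difference that was not tested. POLR3G stood in KYSE510 at 17.4 FPKM in DMSO, 5.59, 4.55, 5.03 and 4.17 FPKM after 2, 4, 6 and 12 h at 50 nM, and 4.64 FPKM at 200 nM. In TE7 it stood at 6.98 FPKM in DMSO, 8.01, 8.95, 9.19 and 8.13 FPKM at 50 nM, and 15.03 FPKM at 200 nM. The library labelled KYSE510 DMSO was the highest of all, every treated KYSE510 library was below it, and every treated TE7 library was above TE7 DMSO. POLR3GL stood in KYSE510 at 5.12 FPKM in DMSO, 11.3, 11.7, 10.7 and 8.66 FPKM after 2, 4, 6 and 12 h at 50 nM, and 7.02 FPKM at 200 nM. In TE7 the level was 13.7 FPKM in DMSO, 8.30, 6.91, 6.26 and 2.62 FPKM at 50 nM, and 3.45 FPKM at 200 nM. Here every treated KYSE510 library was above DMSO and every treated TE7 library below. The ratio of POLR3G to POLR3GL was 0.482 and 3.11 at 12 h in KYSE510 and TE7, against 3.40 and 0.511 with DMSO. Neither gene was called against DMSO, and the KYSE510 contrast rests on the 1 library that stood apart. Without it the POLR3GL change was -1.72 at 12 h and -1.70 at 200 nM, and -1.71 at 12 h without it and both 200 nM libraries. These fits take the TE7 DMSO library as the only control, so their calls are not given and the POLR3GL changes rest on TE7. In TE7 alone POLR3GL changed by -2.02 at 12 h and -1.72 at 200 nM. From 2 to 12 h it changed by -0.35 in KYSE510 and -1.36 in TE7. Within the 50 nM course POLR3GL had a slope of -0.0885 ± 0.0203 per hour (limma, adjusted p = 0.00585), and POLR3G one of -0.0158 ± 0.0126 that did not pass (adjusted p = 0.297).

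POLR3K, the gene of the small RNA cleavage subunit, stood between 10.8 and 27.1 FPKM and was called only over hours (-0.0924 ± 0.0178; limma, adjusted p = 0.00247). It overlaps SNRNP25, at a mean of 29.2 FPKM. CRCP, which makes the stalk subunit RPC9, stood in KYSE510 at 17.5 FPKM in DMSO, 24.9, 28.1, 30.01 and 27.9 FPKM after 2, 4, 6 and 12 h at 50 nM, and 10.2 FPKM at 200 nM. TE7 libraries held 35.99 FPKM in DMSO, 46.3, 45.8, 36.3 and 18.1 FPKM at 50 nM, and 13.03 FPKM at 200 nM. CRCP was lowest at 200 nM in each line and was called lower there than at 50 nM (-1.44 ± 0.36, adjusted p = 0.0246), a call lost without any 1 of the 4 libraries compared (adjusted p = 0.058 to 0.159). Over hours, 8 of the 10 polymerase III genes had a negative slope that passed, beside 49.3% of all genes tested.

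**Figure D3:**
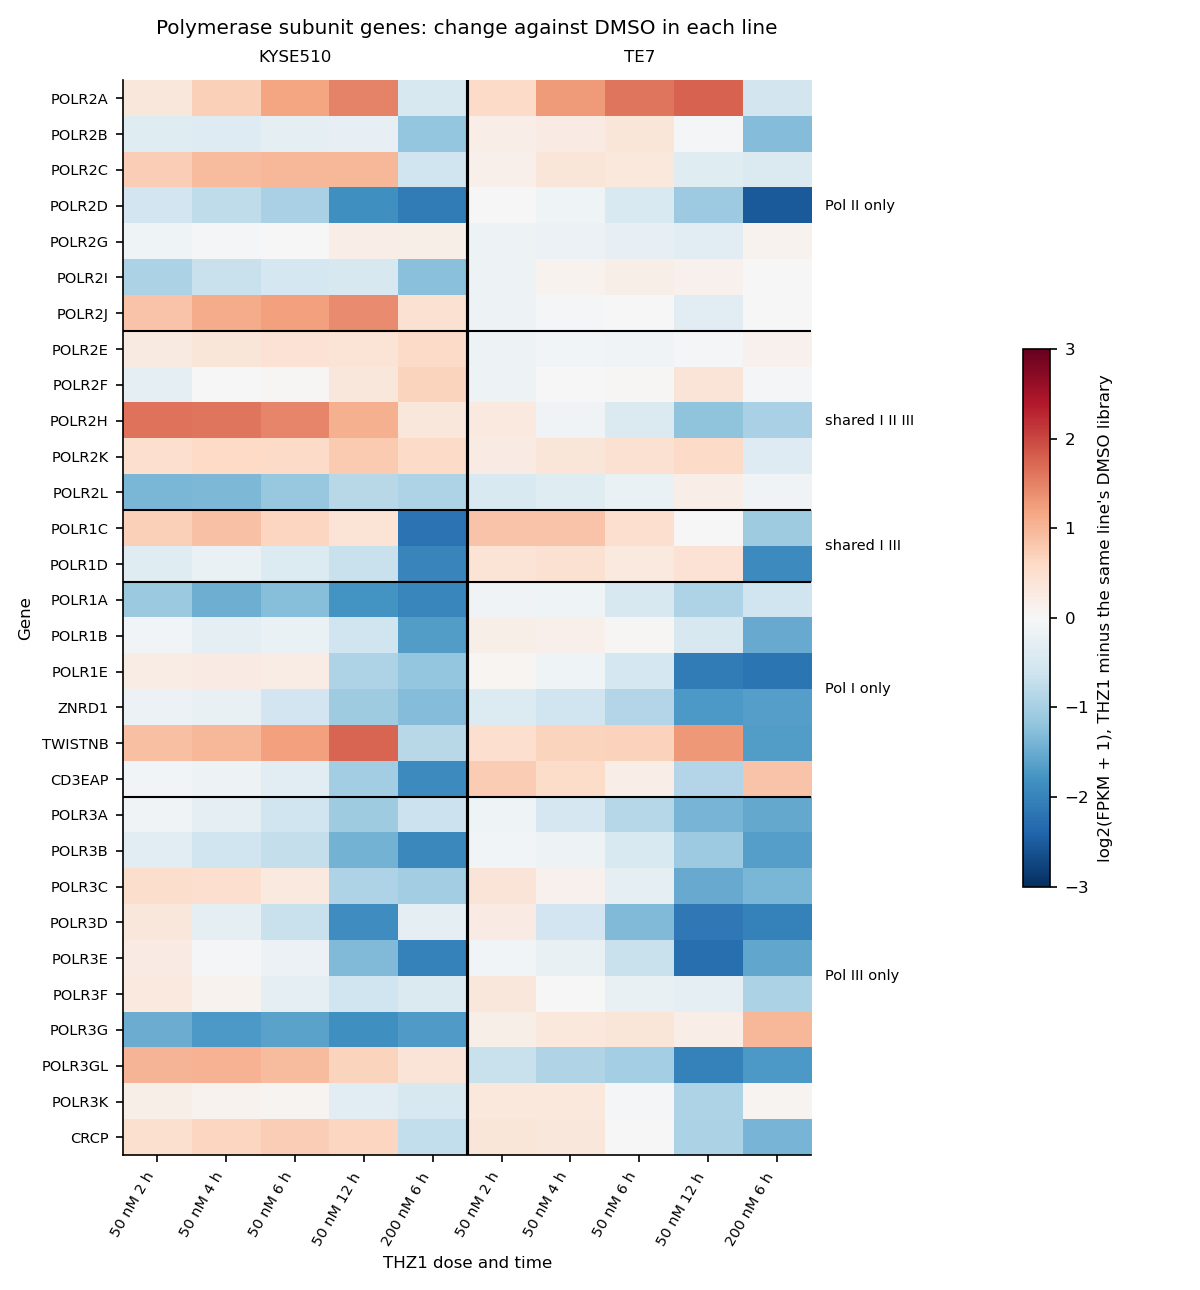
Difference in log2(FPKM + 1) between each THZ1 library and the DMSO library of the same line, for the 30 genes in rows grouped by enzyme, with KYSE510 in the left columns and TE7 in the right ones; red is higher with THZ1 and blue lower. The rows of POLR2A and TWISTNB turn redder along the 50 nM columns in both lines and blue at 200 nM, and most polymerase III rows turn blue by 12 h.

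In count, no member was called at 2 or 4 h by limma at an adjusted p under 0.05, where 0.0128% and 0.0256% of all genes were called higher and 0% and 0.0512% lower. At an unadjusted p under 0.05, 2 members at 2 h and 5 at 4 h passed, beside 10.8% and 15.8% of all genes. At 6 h POLR2A was called higher and no member lower, beside 0.692% and 4.02% of all genes. At 12 h, 2 of 30 were called higher and 9 lower, beside 3.27% and 25.2%. At 200 nM against DMSO, 0 were called higher and 13 lower, beside 3.22% and 35.3% of all genes, and the medians were -0.88 over the members and -0.65 over all genes. For 200 nM against 50 nM at 6 h, 0 were higher and 14 lower, beside 2.94% and 21.9%, with medians of -0.69 and -0.46. Most of these 14 calls were lost without either library of 50 nM at 6 h, which leaves 1 library in that group. Calls over all genes fell steeply in the same fits, so the loss is not particular to the members. Over hours at 50 nM, 5 had a positive and 16 a negative slope, beside 10.6% and 49.3%.

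The split between higher and lower calls depended on scaling, and the median change of all genes was 0.00 at 2 h, -0.42 at 12 h and -0.65 at 200 nM. Median-of-ratios scaling moved the median change of all genes to 0.02 at 12 h and to -0.01 at 200 nM. The calls were then 7 higher and 5 lower at 12 h, 5 and 6 at 200 nM against DMSO, 3 and 6 at 200 nM against 50 nM, and 12 and 9 over hours. Over all 15610 genes, 3445 were then called in either direction at 12 h and 3807 at 200 nM against DMSO. For 200 nM against 50 nM this number was 2742, and over hours it was 8348. POLR2A and TWISTNB stayed among those called higher at 12 h and over hours and lower at 200 nM against 50 nM, and POLR2D, POLR1E, ZNRD1, CD3EAP, POLR3A, POLR3B, POLR3C, POLR3D and POLR3E kept a negative slope that passed. For 200 nM against 50 nM, the calls of POLR2B, POLR2C, POLR2D, POLR1E, ZNRD1, POLR3C, POLR3E and CRCP were lost under median-of-ratios scaling. Rescaling to equal sums lost the same calls except that of POLR2D. The negative slopes of POLR2H, POLR1C, POLR1A, POLR1B, POLR3F, POLR3GL and POLR3K no longer passed under median-of-ratios scaling. The 12 h calls of POLR2D (-0.90, adjusted p = 0.10), POLR1A (-0.84, adjusted p = 0.133), POLR1E (-0.98, adjusted p = 0.0503) and POLR3A (-0.79, adjusted p = 0.0741) were lost too, as were the 200 nM calls of POLR2B, POLR1C, POLR1A, POLR1E, TWISTNB, POLR3A and POLR3C. The small subunits POLR2E, POLR2F, POLR2G, POLR2J and POLR2K were then called higher at 12 h and at 200 nM, so whether they pass against DMSO depends on the scaling, and for POLR2G at 12 h the sign does too. At 12 h, without the library labelled KYSE510 DMSO and both 200 nM libraries, the median change of all genes was -0.49.

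**Figure D4:**
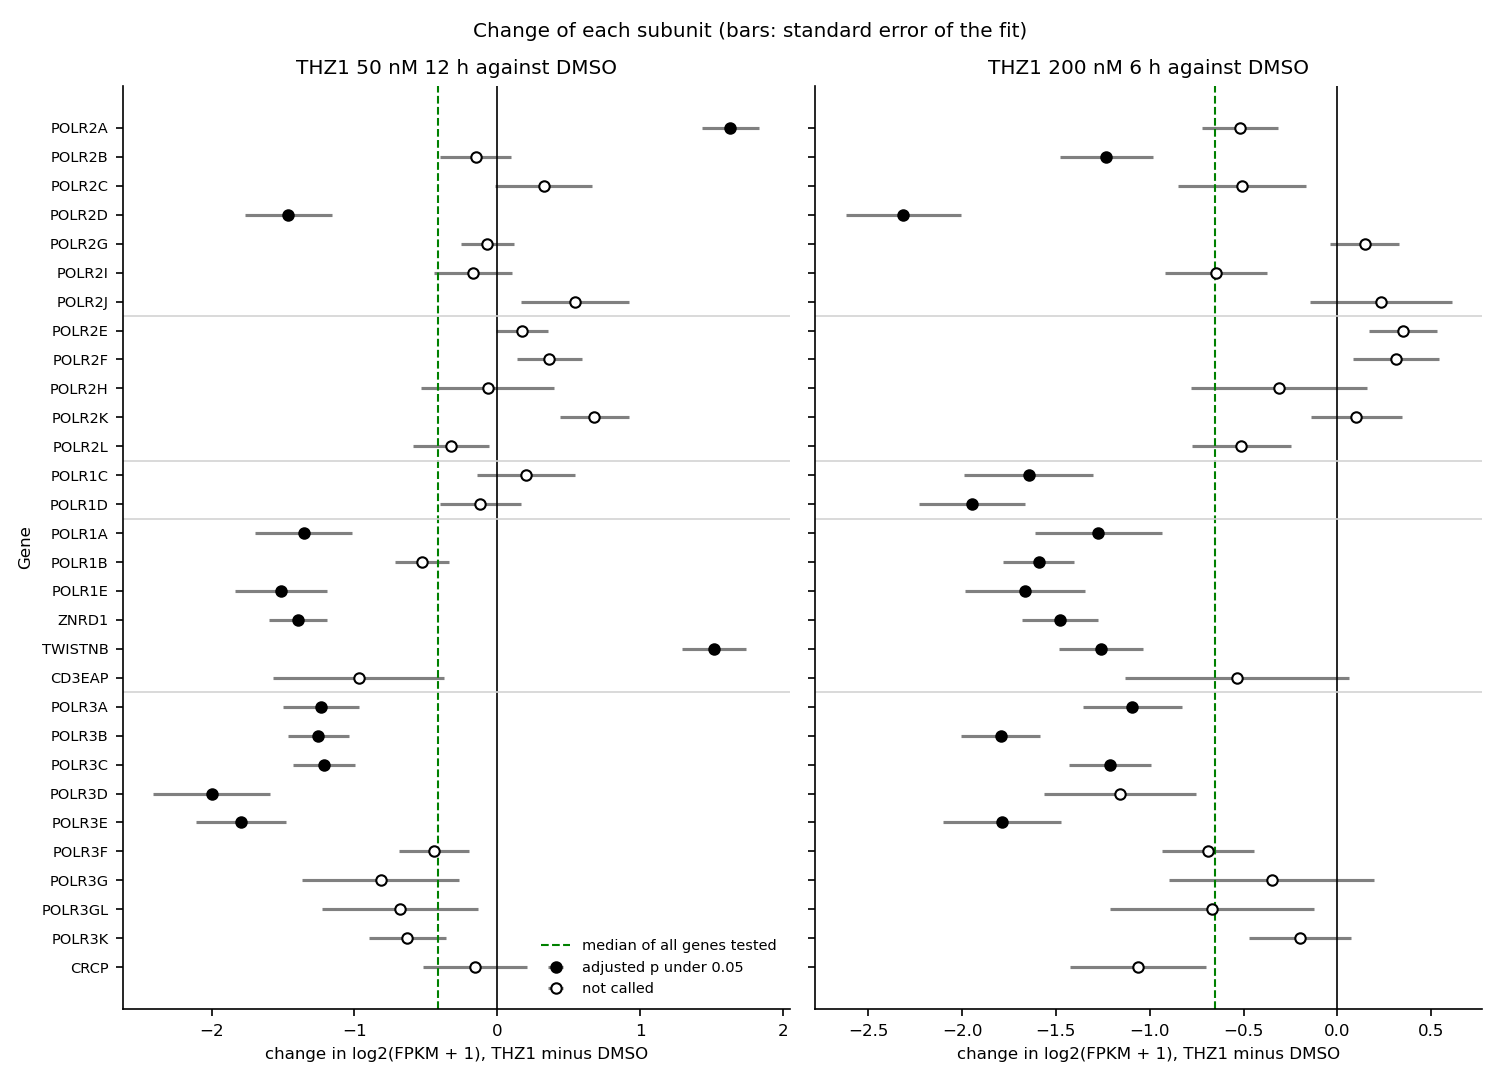
Change in log2(FPKM + 1) of each gene at 50 nM for 12 h and at 200 nM for 6 h against DMSO, as the mean over both lines with the standard error of the fit; filled points passed an adjusted p of 0.05, the dashed line is the median of all genes tested, and grey lines part the enzyme classes. POLR2A and TWISTNB lie at 1.63 and 1.52 at 12 h, and at -0.52 and -1.26 at 200 nM.

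Between the lines, over all conditions, 2 members were higher in KYSE510 and 7 lower, beside 17.5% and 28.9% of all genes. POLR2H was higher in KYSE510 by 1.44 ± 0.27 and POLR1C by 0.79 ± 0.20 (limma, adjusted p = 0.00431 and 0.0141). POLR2K (-1.07), POLR2L (-1.01), POLR3E (-0.98), POLR1D (-0.90), POLR2F (-0.49), POLR2G (-0.42) and POLR3F (-0.40) were lower in KYSE510, with adjusted p of 0.00111 to 0.0487. POLR2A differed by 0.00 ± 0.12 (adjusted p = 0.99), but was called higher in KYSE510 when FPKM was rescaled to equal sums (0.35, adjusted p = 0.0461). Without the library labelled KYSE510 DMSO and both 200 nM libraries, 6 were higher and 12 lower, all 9 of the above among them, beside 68.4% of all genes called in either direction. Rescaling to equal sums of FPKM gave 8 higher and 4 lower, and median-of-ratios scaling 5 and 5. Over all 15610 genes, 7127 and 7068 were called in either direction under these scalings. The calls of POLR2F, POLR2G and POLR3F were each lost without some single libraries of 50 nM.

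The slope over hours at 50 nM differed between the lines for 4 members, each higher in KYSE510, beside 3.57% of all genes with a higher and 2.56% with a lower slope in KYSE510. The difference was 0.151 ± 0.0226 per hour for CRCP, 0.0984 ± 0.0201 for POLR3GL, 0.0882 ± 0.0134 for POLR2H and 0.0518 ± 0.00991 for POLR2G (limma, adjusted p = 0.0253, 0.042, 0.0257 and 0.0366). In CRCP, KYSE510 stood at 27.9 FPKM at 12 h and TE7 at 18.1 FPKM, while at 2 h they stood at 24.9 and 46.3 FPKM. The number of members called moved between 0 and 8 when 1 library was left out: 8 without the TE7 library of 2 h, 4 without the TE7 library of 6 h, 1 without the KYSE510 library of 6 h, and 0 without any 1 of the other 5. Over all genes tested, 1438, 918 and 279 were called in the first fits named, in that order. Without any 1 of the other 5 libraries, 0 to 40 were called.

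**Figure D5:**
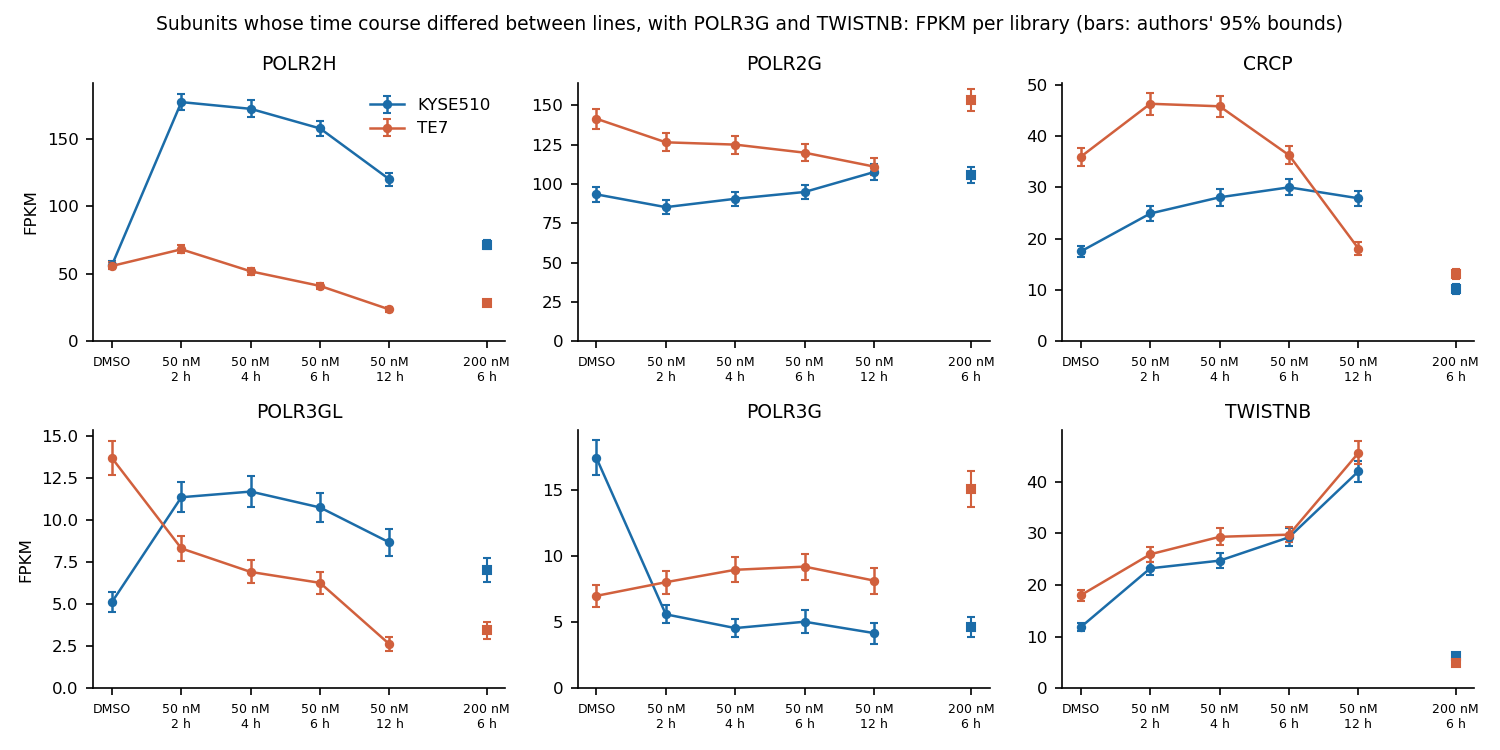
FPKM per library of the 4 genes whose slope over hours differed between the lines, with POLR3G and TWISTNB for comparison; KYSE510 is blue, TE7 orange, squares are 200 nM at 6 h and bars are the authors' 95% bounds. POLR2H stands at 120.0 to 177 FPKM in the 50 nM libraries of KYSE510 and at 23.4 to 68.1 FPKM in those of TE7, while TWISTNB follows nearly the same course in both.

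Across the 30 genes, those with higher mean FPKM tended to have higher changes: Spearman's rho between log2 mean FPKM and the change was 0.72 at 12 h, and it was 0.65 for the slope over hours. The Pearson values were 0.66 and 0.63. The genes share the 12 libraries, and low levels have their changes shortened by the added 1 FPKM. The mean was taken over all 12 libraries, those that make up the change among them. A gene that rises thereby also gains in mean, so these values are in part built in. No such value was computed over all genes tested. With the length of the locus on the genome, rho was -0.18 and -0.12.

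A further 45 genes act with these enzymes: 7 polymerase I factors, 16 polymerase III factors, 17 genes for polymerase II assembly and its C-terminal domain, and 5 other polymerase genes. At 12 h, 1 of the 45 was called higher and 18 lower, with a median of -0.72, beside 3.27% and 25.2% of all genes and their median of -0.42. At 200 nM 0 and 28 were called, with a median of -0.95, beside 3.22% and 35.3% and a median of -0.65. By group the numbers called lower at 12 h were 1 of 7, 8 of 16, 8 of 17 and 1 of 5. RPRD1B, which binds the C-terminal domain, was the 1 called higher and was chosen after its values were seen. It stood at 51.3 and 76.97 FPKM in KYSE510 and TE7 after 12 h at 50 nM, against 15.6 and 39.2 FPKM in KYSE510 and TE7 with DMSO (1.31 ± 0.22; limma, adjusted p = 0.00533). At 200 nM its change was -0.45 ± 0.22 (adjusted p = 0.141).

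SNAPC1, a subunit of the small nuclear RNA activating complex used by polymerases II and III, stood at 2.32 and 2.68 FPKM in KYSE510 and TE7 after 12 h at 50 nM, against 17.8 and 12.4 FPKM in KYSE510 and TE7 with DMSO (-2.18 ± 0.35; limma, adjusted p = 0.00424). The phosphatase genes of the C-terminal domain, CTDSP1 and CTDSP2, changed by -1.84 ± 0.34 and -1.71 ± 0.30 (adjusted p = 0.0067 and 0.00594). GPN2, a GTPase gene of polymerase II assembly, stood at 3.39 and 3.82 FPKM in KYSE510 and TE7 after 12 h at 50 nM, against 15.6 and 13.8 FPKM in KYSE510 and TE7 with DMSO (-1.77 ± 0.19; limma, adjusted p = 0.00144). GTF3C1, the largest TFIIIC subunit gene, changed by -1.67 ± 0.46 (limma, adjusted p = 0.0314). Each of these 5 genes was named because it passed in at least 2 comparisons with DMSO, and their changes at 200 nM were -2.31 to -1.52. The helicase gene RECQL5, chosen after its values were seen, had the lowest change of the 45 at 12 h and passed there alone among the comparisons with DMSO. It stood at 1.80 and 3.14 FPKM in KYSE510 and TE7 after 12 h at 50 nM, against 10.8 and 27.8 FPKM in KYSE510 and TE7 with DMSO (-2.44 ± 0.34; limma, adjusted p = 0.00262), and its change at 200 nM was -0.36 ± 0.34 (adjusted p = 0.425).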

How the data were processed

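RNA from 12 libraries was sequenced, 1 per cell line and condition. The authors deposited 1 gene table per library in FPKM, which per the file headers has the columns of Cufflinks and 95% bounds. Per the submitters' processing notes the tools were STAR and Cufflinks and the build hg19. Versions, settings, strandedness and annotation: not given in the sources used here. Fragment totals are likewise not given, so depth is unknown. The authors' upper bound lay 3.43% to 34.1% above the value for the 30 genes, which covers counting error only. A table of the whole series was not used because its small numbers have damaged signs.

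Identifiers listed at several loci were summed. Genes reaching 1 FPKM in 2 or more of the 12 libraries, 15610 in number, entered as log2(FPKM + 1) into limma 3.58.1 in R 4.3.3 (trend=TRUE, two-sided, Benjamini-Hochberg over all genes, threshold 0.05), with terms for condition and cell line (residual degrees of freedom 5, prior 2.86). A change on this scale understates that of low genes. The slope used the 8 libraries of 50 nM with hours and cell line (5 and 3.26), and its difference between lines an interaction term (4 and 2.97). Replicate number stands for the cell line, which is what pairs the libraries. Ratios and exact permutations were computed with Python 3.11.15, pandas 2.3.3 and numpy 2.4.6, and the fits were tested on simulated data. Promoters were matched by symbol or older symbol.

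The members, lists and tests were chosen with earlier results of these data known. All 30 members were named. Of the 45 further genes, those called in 2 or more comparisons with DMSO were named, up to 6 by size at 12 h, of which 1 is not reported here. Alternatives were a pseudocount of 0.1, no filter, equal sums, median-of-ratios scaling, no cell-line block, the highest locus, and leaving out libraries.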

Additional observations from a re-analysis of the deposited data

Results flagged for a closer look

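The slope over hours at 50 nM differed between KYSE510 and TE7 in 4 members by the interaction term of limma. Over all genes, 3.57% were called with a higher and 2.56% with a lower slope in KYSE510. The number of members called moved between 0 and 8 when 1 library of 50 nM was left out, and the number over all genes between 0 and 1438. The difference, KYSE510 minus TE7 in log2(FPKM + 1) per hour, was 0.0518 for POLR2G (adjusted p = 0.0366), 0.0882 for POLR2H (adjusted p = 0.0257), 0.0984 for POLR3GL (adjusted p = 0.042) and 0.151 for CRCP (adjusted p = 0.0253).

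In the paralogs POLR3G and POLR3GL all 5 treated libraries of one line moved away from DMSO in one direction and all 5 of the other line in the opposite one. The mean change against DMSO was -1.67 in KYSE510 and 0.41 in TE7 for POLR3G, and 0.81 in KYSE510 and -1.26 in TE7 for POLR3GL. This difference was not tested. The KYSE510 values all rest on the library labelled KYSE510 DMSO, which stood apart from the other KYSE510 libraries.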

How the results depend on the processing

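The counts of members called at 12 h against DMSO stayed within 1.5 times of 11 except without the TE7 library of 12 h. For other comparisons, rescaling to equal sums of FPKM left 7 calls at 200 nM against 50 nM, and median-of-ratios scaling left 9 there and gave 2 at 6 h. Over all 15610 genes, 2296, 2742 and 352 were called in these fits. Without the cell-line block (no replicate block) the counts were 0 at 6 h, 8 at 200 nM against DMSO, 6 at 200 nM against 50 nM and 12 over hours, and 9 at 12 h. The counts over all genes were 0, 2795, 1344, 3649 and 1657 in that order. Without a filter on low values 1 call was left for the slope difference between lines, beside 265 over all genes then tested. Without the library labelled KYSE510 DMSO and both 200 nM libraries there were 3 calls at 4 h, 6 at 6 h and 18 between the lines, beside 10.7%, 24.5% and 68.4% of all genes. Leaving out each library in turn gave 0 to 6 calls at 2 h, 0 to 5 at 4 h, 0 to 6 at 6 h, 7 to 14 at 12 h, 5 to 14 at 200 nM against 50 nM and 0 to 8 for the slope difference. The libraries behind these ranges were the TE7 DMSO library at 2, 4 and 6 h (6, 5 and 6 calls without it), either 200 nM library at 4 and 6 h (1 and 5), the TE7 library of 12 h at 12 h (7) and those of 50 nM at 6 h for the dose comparison (5 and 6). The slope over hours had 21 calls, and 21 to 25 when 1 library was left out. Single genes were followed for the calls of members in the main tests and for POLR2A in every comparison, 78 results in all, so members that pass newly under an alternative are not among them. Of their values under the alternatives, 1126 kept direction and side of the threshold, 167 no longer passed, 5 passed newly and 11 turned in sign. All 5 were of POLR2A: between the lines, at 4 h, and at 200 nM without the KYSE510 library of that dose (-0.71). The 4 h changes were 0.996 without either 200 nM library and 1.18 without both and the library labelled KYSE510 DMSO. The last of these fits keeps 1 DMSO library, so its p-value holds no variation of DMSO and is not read as a call. Under median-of-ratios scaling the slope of POLR1B turned to 0.00127 (adjusted p = 0.916), the change of POLR2A at 200 nM against DMSO to 0.34 and its slope difference between lines to -0.00738. The line difference of POLR2A was -0.14 without the library labelled KYSE510 DMSO and both 200 nM libraries and -0.0616 to 0.0693 when 1 library was left out, and its slope difference -0.148 to 0.111. The log2 ratio of POLR2A to the other 6 polymerase II subunits, 12 h over DMSO, was 1.54 and became 1.83 with the mean of log2 values. The cause of these moves was not tested, except that fewer libraries leave fewer degrees of freedom. No fragment totals are given, so precision at low FPKM, as in POLR3B, is limited to the authors' bounds.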

Other observations

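Genes near POLR2H were set beside its high level in the 50 nM libraries of KYSE510, in a window chosen after the values were seen. Of the other genes with a mean of at least 5 FPKM within 500000 bases of POLR2H on either side, 12 of 15 stood higher in all 4 libraries of 50 nM in KYSE510 than in the library labelled KYSE510 DMSO and in all 6 TE7 libraries. Over all 9186 genes with that mean the share was 8.58%. Neighbouring genes share these libraries and no test was made.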
